A study of Mus musculus with 16 samples.

Results

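Nnt, Aldh1l1, Wdfy1 and Bex1 were 4 of 18193 mouse genes represented on the arrays, described here because their left ventricular signal was higher in mice lacking the nuclear receptor PPARalpha (KO) than in wild-type mice (WT) after either operation. All 11 probe sets (groups of short probes read together as 1 signal) that the array annotation pairs with exactly 1 of these symbols were taken, out of 45037 that are not controls: 3 for Nnt, 5 for Wdfy1, 2 for Aldh1l1 and 1 for Bex1. The 4 genes were chosen from the KO versus WT differences of these same arrays, so those differences are given as values, with no test. Changes between operations within a genotype did not choose them and were tested. They use the same arrays as the choice, so their p-values are not free of it.

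The study measured total RNA of the left ventricle from PPARalpha-/- and wild-type mice on Affymetrix mouse genome arrays, to find differences in cardiac expression that go with PPARalpha at rest and under sustained load. Mice were sham-operated or had TAC (transverse aortic constriction, in which the aorta is tied to a smaller bore so that the ventricle pumps against a higher pressure), and were studied at 28 days. The groups KO sham, WT sham, KO TAC and WT TAC had 4 arrays each, and the labels give no strain, sex or age and leave unsaid whether each replicate is an animal of its own, so the p-values cover only the spread among these samples, part of which may be technical. Because no strain is given, strain background and loss of PPARalpha cannot be told apart for any KO versus WT value here.

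PPARalpha is a transcription factor switched on by lipid ligands, and in heart it is known for activating genes of fatty acid use. It binds DNA together with RXR, classically at direct repeats of the hexamer AGGTCA with 1 base between them. The 4 genes have unrelated known roles: Nnt and Aldh1l1 encode enzymes whose reactions yield NADPH, the reducing agent cells use against peroxides and in synthesis, Wdfy1 encodes an endosomal adaptor of innate immune receptors, and Bex1 encodes a small adaptor protein first described in brain. Inbred mouse substrains are known to differ at Nnt, where some carry a deletion within the gene.

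The upstream sequences of Aldh1l1 and Bex1, the genes of the 4 that matched the promoter table of RefSeq (assembly GRCm38.p6), show whether these letters occur next to their starts. Each is the 250 bases before the annotated start, read 5′ to 3′ along the gene, at chr6:90550543-90550792 (+) for Aldh1l1 and chrX:136215514-136215763 (-) for Bex1, and capitals mark the hexamer AGGTCA on either strand.
Aldh1l1: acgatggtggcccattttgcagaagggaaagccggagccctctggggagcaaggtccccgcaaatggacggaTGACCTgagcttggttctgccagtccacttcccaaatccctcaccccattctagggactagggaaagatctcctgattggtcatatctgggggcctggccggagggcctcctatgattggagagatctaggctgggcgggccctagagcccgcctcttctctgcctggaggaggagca
Bex1: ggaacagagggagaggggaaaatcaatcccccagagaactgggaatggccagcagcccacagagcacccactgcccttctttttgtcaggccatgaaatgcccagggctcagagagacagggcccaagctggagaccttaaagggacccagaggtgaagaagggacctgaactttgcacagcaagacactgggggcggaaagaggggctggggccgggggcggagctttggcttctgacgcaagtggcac
The window of Aldh1l1 held 1 hexamer, on the opposite strand and therefore printed as TGACCT, beginning 178 bases before the start, and that of Bex1 held 0. Of 32851 promoter windows of this length in the table, 14% held the hexamer on either strand. The direct repeat (AGGTCA, any base, AGGTCA, on either strand), which contains the hexamer, occurred in neither window and in 0.0335% of all windows. Both windows had a GC content of 59.6%, against a median of 52.4% over all windows.

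A signal is the deposited intensity of a probe set on 1 array, on a scale the authors set for the whole array, and signals of different probe sets are not comparable. Differences are of mean log2 signal, after values under 11.9 were raised to that floor, and are given ± the standard error (SE) of a limma fit to all 16 arrays. Adjusted p is limma's p after Benjamini-Hochberg adjustment over the 27022 probe sets bright enough to be tested, and a call is an adjusted p under 0.05. Of the 11 probe sets, 8 were bright enough: 2 of Nnt, 4 of Wdfy1, 1 of Aldh1l1 and 1 of Bex1. Median signals of the arrays lay between 108.3 and 163, and arrays of the same group had mean correlations with each other between 0.895 and 0.942, lowest for WT TAC replicate 3. The mean log2 signal of the hybridisation spike-ins lay between 12.95 and 13.42 in KO sham, 12.89 and 13.08 in WT sham, 12.55 and 13.22 in KO TAC and 13.2 and 13.68 in WT TAC. The targeted gene was lower in KO on all 3 of its probe sets with no overlap, and the one with the highest mean signal lay between 524.2 and 727.1 in KO sham, against 1546 and 2308 in WT sham, and between 388.1 and 524.7 in KO TAC, against 1385 and 2171 in WT TAC. Whether these probes lie in the deleted part of Ppara is not known here. All 10 cardiomyocyte markers, such as Myh6 and Tnnt2, were bright enough to be tested.

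All 8 probe sets bright enough to be tested had a higher mean in KO than in WT after either operation. In 7 of 8 the KO sham and WT sham arrays did not overlap, where 2.67% of all tested probe sets were higher in KO sham without overlap, and in 7 of 8 the KO TAC and WT TAC arrays did not overlap, against 3.83% of all. The exception in both was Wdfy1 probe set 1453426_a_at. These comparisons chose the genes, so nothing is read from the shares. Brightness was judged by mean log2 signal over all arrays, KO included, so a high KO signal helped a probe set to pass. Of the dim ones left out, Wdfy1 1447543_at had lower means in KO after either operation and Nnt 1432608_at in sham. Aldh1l1 1424401_at had higher means in KO after either operation, and Nnt 1432608_at in TAC.

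Nnt encodes the transhydrogenase of the inner mitochondrial membrane, which uses the proton gradient to make NADPH from NADH. Probe set 1416105_at gave 29235, 28077, 30835 and 34447 in KO sham (replicates 1 to 4), against 12964, 13989, 14905 and 15141 in WT sham. It gave 19197, 18560, 22467 and 20508 in KO TAC, against 12800, 13404, 15735 and 15112 in WT TAC. Every KO array was above every WT array, and the WT arrays of both operations covered nearly the same range. The difference between genotypes was 1.10 ± 0.11 in sham, a 2.15-fold higher signal in KO, and 0.50 ± 0.11 in TAC, a 1.42-fold higher signal in KO.

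Within KO, Nnt fell with TAC. The drop on 1416105_at was -0.60 ± 0.11, a signal 1.52-fold lower in KO TAC than in KO sham with no overlap (limma adjusted p = 0.0228). Of all tested probe sets, 0.729% were called in either direction, and 4.36% were lower in KO TAC without overlap. In WT the same probe set differed by -0.0011 ± 0.11 between TAC and sham (limma adjusted p = 0.999). The difference between these changes, which equals that between the genotype differences, was -0.60 ± 0.16 and is given with no test. The call in KO ended without KO sham replicate 3 or 4 or KO TAC replicate 1, 2 or 4 (limma adjusted p between 0.0532 and 0.0921), and also with quantile normalization (0.112), arrays centred on their medians (0.154), no filter on dim probe sets (0.103), only the arrays compared (0.162) or a spike-in covariate (0.105). The value stayed between -0.66 and -0.48 under every alternative run. A sign of RNA quality moved with TAC in KO as well: for the actin control, 3′ signal over 5′ signal was between 1.18 and 1.36 in KO TAC, against 1.52 and 1.75 in KO sham, while for the Gapdh control it was between 0.765 and 0.789 in KO TAC, against 0.738 and 0.769 in KO sham. In WT the actin ratio was between 1.28 and 1.53 in TAC, against 1.47 and 1.56 in sham, with overlap. The Gapdh ratio in WT was between 0.747 and 0.799 in TAC, against 0.719 and 0.786 in sham. The part of RNA quality in the drop of Nnt was not tested.

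A second Nnt probe set, 1456573_x_at, whose suffix marks probes that can also bind other transcripts, gave 12321, 14285, 11545 and 15561 in KO sham, against 6462, 7683, 8663 and 6218 in WT sham. It gave 10821, 8444, 9244 and 8612 in KO TAC, against 6399, 6803, 5875 and 6449 in WT TAC. KO arrays were again all above the WT arrays of the same operation, by 0.89 ± 0.14 in sham and 0.54 ± 0.14 in TAC. KO TAC and KO sham did not overlap either, but the difference of -0.53 ± 0.14 was not called (limma adjusted p = 0.0998), and in WT it was -0.17 ± 0.14 (adjusted p = 0.853). The third Nnt probe set, 1432608_at, was too dim to be tested: its signals lay between 29.0 and 70.6 in KO sham, 21.7 and 95.9 in WT sham, 28.5 and 97.5 in KO TAC and 19.4 and 255 in WT TAC, overlapping throughout.

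**Figure D1:**
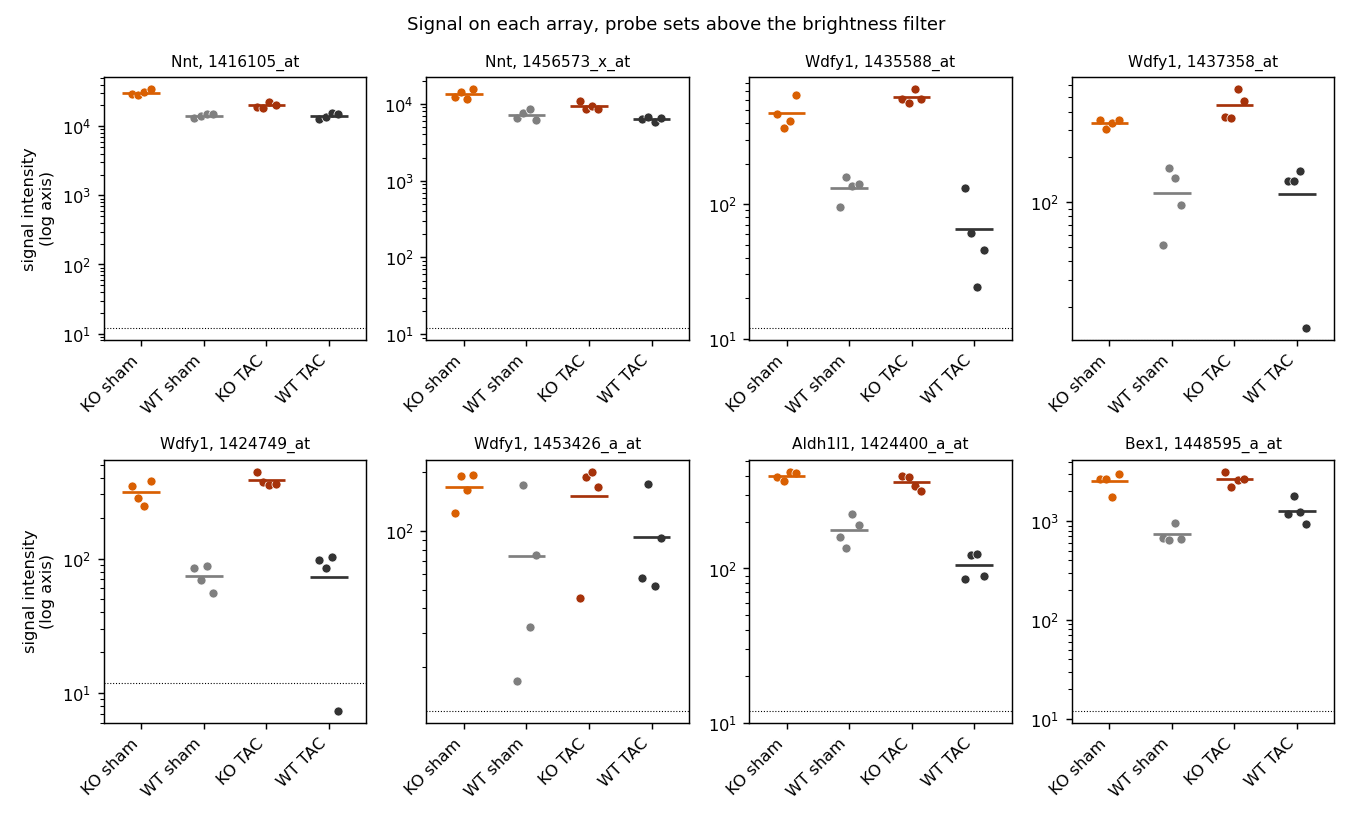
Signal intensity (log axis) of each array for the 8 probe sets bright enough to be tested, in KO sham, WT sham, KO TAC and WT TAC with 4 arrays each; points are arrays, short lines are group means and the dotted line, where in range, is the floor of 11.9. KO arrays lie above the WT arrays of the same operation on every panel except Wdfy1 1453426_a_at, where they overlap.

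Aldh1l1 encodes the cytosolic enzyme that oxidises formyltetrahydrofolate to tetrahydrofolate and carbon dioxide with the formation of NADPH, which removes one-carbon units from the folate pool. Probe set 1424400_a_at gave 388.5, 368.1, 421.9 and 417.5 in KO sham, against 159.8, 135.4, 225.7 and 190.9 in WT sham. It gave 397.4, 393.7, 342.0 and 316.9 in KO TAC, against 84.9, 122.7, 123.3 and 89.8 in WT TAC. The 8 KO arrays formed a narrow band above all 8 WT arrays, and every WT TAC array was below every WT sham array. The signal was 2.28-fold higher in KO in sham (1.19 ± 0.17) and 3.48-fold higher in TAC (1.80 ± 0.17).

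The TAC arrays of WT had a 1.69-fold lower Aldh1l1 signal than its sham arrays (-0.75 ± 0.17, limma adjusted p = 0.494), a difference that did not pass the test although the groups did not overlap. Of all tested probe sets, 1.59% were lower in WT TAC without overlap. In KO the difference between TAC and sham was -0.14 ± 0.17 (limma adjusted p = 0.800), and the difference between the changes, 0.61 ± 0.24, is given with no test. The second Aldh1l1 probe set, 1424401_at, was too dim to be tested. It lay between 16.5 and 132.8 in KO sham, 6.6 and 44.9 in WT sham, 23.4 and 60.7 in KO TAC and 13.0 and 155.5 in WT TAC, with overlap, and differed between genotypes by 0.85 ± 0.78 in sham and 0.41 ± 0.78 in TAC.

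Wdfy1 encodes a protein with a FYVE domain, which holds it to phosphoinositides of early endosomes, and WD repeats. It is known to bring the adaptor TRIF to the receptors TLR3 and TLR4. Probe set 1435588_at gave 473.3, 369.7, 420.0 and 652.0 in KO sham, against 94.6, 158.7, 137.3 and 141.7 in WT sham. It gave 603.3, 568.5, 720.2 and 608.3 in KO TAC, against 131.3, 61.3, 24.1 and 46.0 in WT TAC. Every KO array was above every WT array, and 3 of the 4 WT TAC arrays were below every WT sham array. The signal was 3.58-fold higher in KO in sham (1.84 ± 0.38) and 11.4-fold higher in TAC (3.51 ± 0.38).

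Probe set 1437358_at gave 353.9, 305.1, 334.5 and 353.7 in KO sham, against 51.3, 168.4, 144.0 and 95.7 in WT sham, and 366.7, 361.2, 564.8 and 473.5 in KO TAC, against 138.2, 136.9, 161.4 and 14.3 in WT TAC. Probe set 1424749_at gave 344.8, 281.2, 245.5 and 376.5 in KO sham, against 84.5, 69.3, 88.4 and 55.2 in WT sham, and 440.7, 372.7, 355.1 and 358.2 in KO TAC, against 97.2, 85.5, 102.4 and 7.3 in WT TAC. Neither overlapped between genotypes, and on both the lowest array was WT TAC replicate 4. The genotype differences were 1.69 ± 0.62 in sham and 2.42 ± 0.62 in TAC on 1437358_at, and 2.07 ± 0.52 in sham and 2.75 ± 0.52 in TAC on 1424749_at. Without WT TAC replicate 4 the values in TAC were 1.58 and 2.00, so that the larger difference in TAC than in sham on these probe sets rested on that array.

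The other Wdfy1 probe sets did not show the pattern as clearly. Probe set 1453426_a_at gave 123.0, 191.2, 162.6 and 193.8 in KO sham, against 17.0, 171.3, 32.2 and 75.5 in WT sham, and 45.5, 188.9, 200.1 and 167.8 in KO TAC, against 57.0, 172.8, 52.2 and 91.7 in WT TAC. Its groups overlapped after both operations, with WT replicate 2 bright each time and KO TAC replicate 1 dim. The genotype difference was 1.68 ± 0.65 in sham and 0.65 ± 0.65 in TAC, and the value in TAC turned to -0.08 when spike-in signal was a covariate. The dim probe set 1447543_at gave 7.1, 12.3, 21.8 and 88.4 in KO sham, against 51.2, 79.6, 54.4 and 31.3 in WT sham, and 4.3, 12.4, 71.7 and 53.0 in KO TAC, against 35.8, 21.8, 116.2 and 30.6 in WT TAC. It had a lower mean in KO (-1.16 ± 0.75 in sham and -0.58 ± 0.75 in TAC), with overlap. It is thus the Wdfy1 probe set whose means ran the other way.

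No Wdfy1 probe set was called between TAC and sham. On 1435588_at TAC differed from sham by 0.41 ± 0.38 in KO (limma adjusted p = 0.726) and by -1.26 ± 0.38 in WT (limma adjusted p = 0.630). The difference between these changes was 1.67 ± 0.53, with no test, and those of 1437358_at, 1424749_at and 1453426_a_at were 0.73 ± 0.87, 0.68 ± 0.73 and -1.02 ± 0.92. On 1437358_at the KO TAC arrays were all above the KO sham arrays, by 0.37 ± 0.62 in the mean (limma adjusted p = 0.873). Over all tested probe sets 4.1% were higher in KO TAC without overlap.

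**Figure D2:**
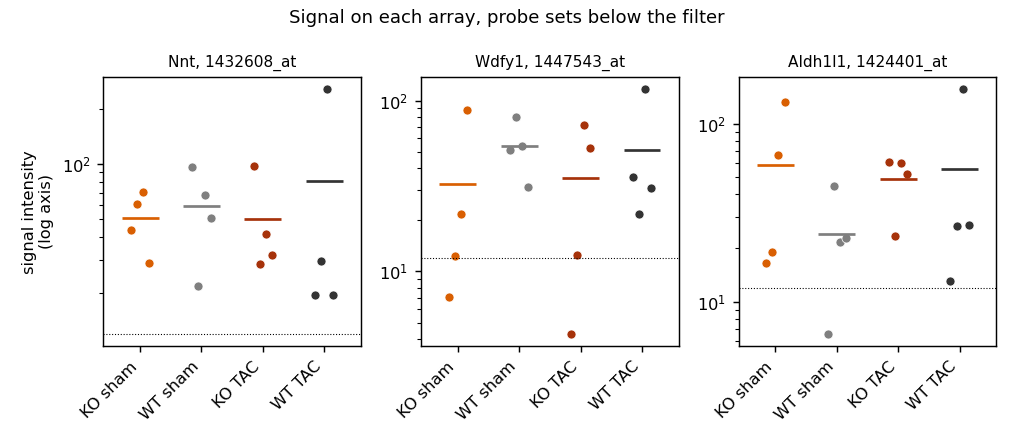
Signal intensity (log axis) of each array for the 3 probe sets too dim to be tested, in KO sham, WT sham, KO TAC and WT TAC with 4 arrays each; points are arrays, short lines are group means and the dotted line is the floor of 11.9. The groups overlap on all 3, and Wdfy1 1447543_at has lower means in KO.

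Bex1 encodes a small X-linked protein, abundant in brain, that binds the neurotrophin receptor p75 and is also known in heart, where it associates with RNA. Its single probe set, 1448595_a_at, gave 2669, 2676, 1746 and 2960 in KO sham, against 678.2, 645.1, 946.4 and 656.0 in WT sham. It gave 3137, 2213, 2582 and 2691 in KO TAC, against 1168, 1781, 1224 and 932.1 in WT TAC. KO arrays were above the WT arrays of the same operation, but WT TAC replicate 2 was above KO sham replicate 3. Bex1 was 3.41-fold higher in KO in sham (1.77 ± 0.21) and 2.12-fold higher in TAC (1.09 ± 0.21).

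In WT the Bex1 signal was 1.72-fold higher in TAC than in sham (0.78 ± 0.21, limma adjusted p = 0.619), a difference that did not pass, and WT sham replicate 3 lay just above the lowest WT TAC array. In KO the difference was 0.10 ± 0.21 (limma adjusted p = 0.911). The difference between the changes was -0.69 ± 0.30, with no test.

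**Figure D3:**
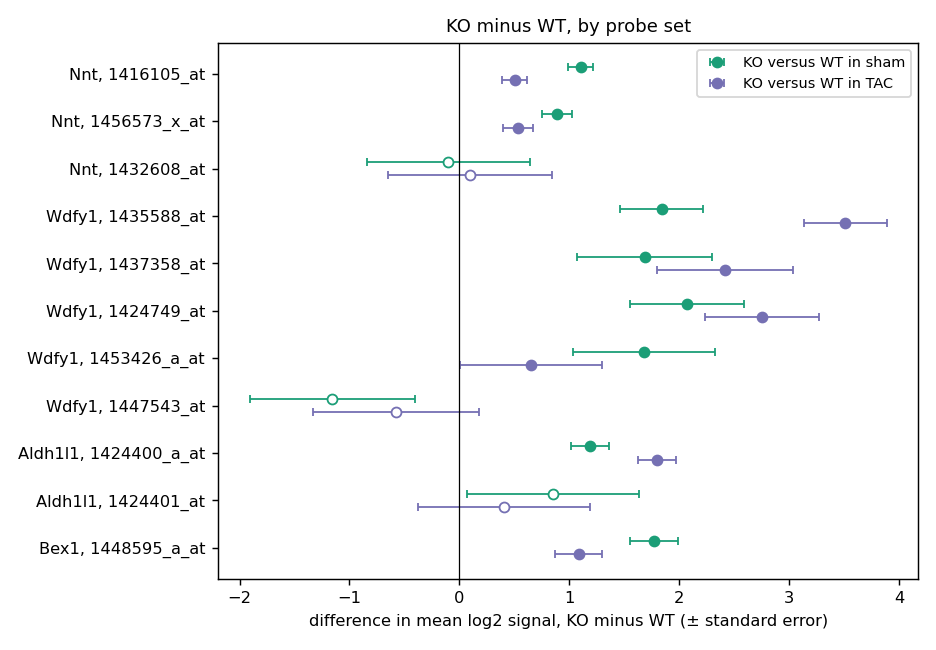
Difference in mean log2 signal between KO and WT (x axis, KO minus WT) for the 11 probe sets, in sham and in TAC; bars are the SE of the limma fit and open points are probe sets too dim to be tested. The 8 filled rows lie right of 0 in both, from 0.50 for Nnt 1416105_at in TAC to 3.51 for Wdfy1 1435588_at in TAC.

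Across the 4 genes, the size of the genotype difference went with the operation in different ways. Nnt and Bex1 differed less between genotypes in TAC than in sham, Nnt with a lower KO TAC signal and Bex1 with a higher WT TAC mean, while Aldh1l1 and Wdfy1 1435588_at differed more, with lower WT TAC means. Of the 8 probe sets, limma called 1 between TAC and sham in KO, where 0.729% of all were called, and 0 in WT. In WT it called 0 of 27022 (0%), with 1808 at an unadjusted p under 0.05 (6.69%). The difference between the TAC changes of KO and WT was called for 0 of all 27022 probe sets, with 2354 at an unadjusted p under 0.05 (8.71%). Every comparison shares its arrays with another, so these values are not independent of each other.

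**Figure D4:**
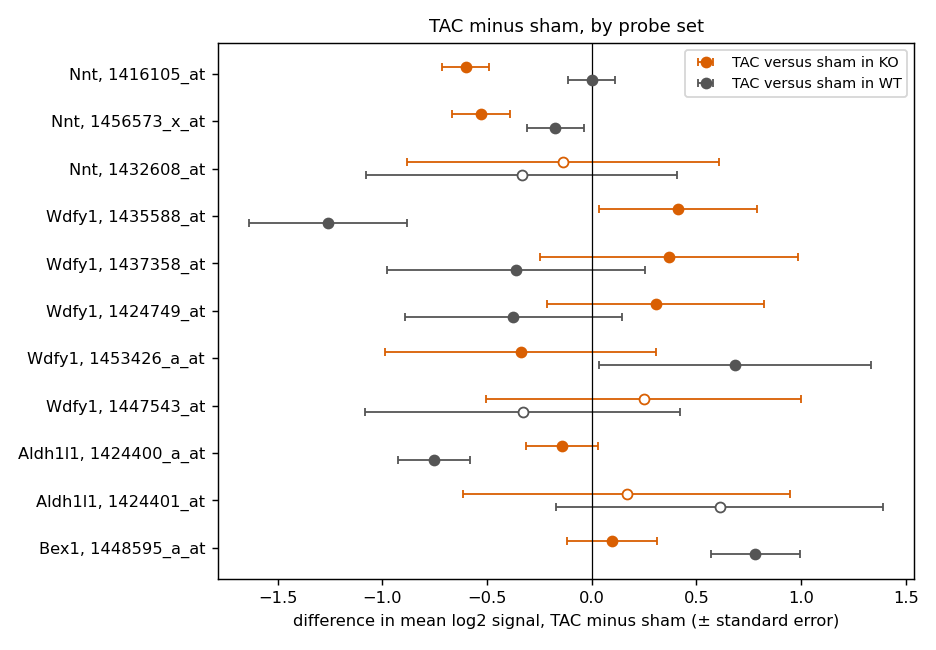
Difference in mean log2 signal between TAC and sham (x axis, TAC minus sham) for the 11 probe sets, in KO and in WT; bars are the SE of the limma fit and open points are probe sets too dim to be tested. Nnt 1416105_at in KO, at -0.60, is the probe set that was called, and the same probe set lies at 0 in WT.

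Probe sets of 1 gene followed each other unequally from array to array. Across the 16 arrays, which share 4 groups, the 2 testable Nnt probe sets had a Pearson r of 0.908, and once each group mean was subtracted the r was 0.081. For Wdfy1 1437358_at and 1424749_at the r was 0.941 across arrays and 0.843 after subtraction, where WT TAC replicate 4 was low on both. Between genes, the r after subtraction ran from -0.344 for Wdfy1 1435588_at with Aldh1l1 to 0.659 for Nnt 1456573_x_at with Bex1. For Bex1 it was -0.032 with the other Nnt probe set, 1416105_at, and between -0.111 and 0.561 with the 4 Wdfy1 probe sets. The deviations of Bex1 from its group means had an r of 0.489 with those of the spike-in signal, and the other 7 probe sets lay between -0.338 and 0.384. These correlations are descriptions over 16 arrays.

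The genes other than the members whose pattern was most like each of them were taken by Pearson r of log2 signal over the same 16 arrays. Among the members themselves, Aldh1l1 and Wdfy1 1435588_at had an r of 0.875, above that of any gene named here for either. Both were chosen as higher in KO, which by itself raises this r. With group means subtracted, the r of this pair was -0.344. For Nnt 1416105_at they were Csnk1e (r = 0.884), Washc1 (0.880), Patj (0.864), Tom1 (0.862) and Gsta4 (0.856). For Aldh1l1 they were Rab4a (r = 0.858), Egr1 (0.849), Cxcl14 (0.848), Sesn1 (0.843) and Dpep1 (0.838). For Wdfy1 1435588_at they were Slco2b1 (r = 0.858), Cox18 (0.854), H2-D1 (0.842), Rxylt1 (0.842) and Sema3c (0.840). For Bex1 they were Slc38a1 (r = 0.909), Prelid2 (0.866), Fkbp11 (0.865), Pacsin3 (0.862) and Cd68 (0.858), the last a macrophage marker. No gene was on more than 1 of these lists.

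With 1 probe set per gene and the 4 members left out, limma called 6 genes (0.0462%) higher in KO after both operations. Slc38a1, a glutamine transporter, was higher by 1.78 ± 0.16 in sham and 1.73 ± 0.16 in TAC, and Rab4a, a GTPase of endosomal recycling, by 1.77 ± 0.34 and 1.78 ± 0.34, both on probe sets whose _s_at suffix marks probes shared by several transcripts. Myot, a protein of the muscle Z-disc, was higher by 0.90 ± 0.17 in sham and 1.32 ± 0.17 in TAC. Fkbp11 (0.85 and 0.69), Gnb3 (0.64 and 0.55) and H1f2 (0.58 and 0.51) differed by less, with limma adjusted p of at most 0.0457 in either operation. Fkbp11 too was on an _s_at probe set. These 6 calls are given without their values under alternative fits. In the other direction, 39 genes (0.3%) were called lower in KO after both operations.

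Genes of each member's pathway were read as lists. At the shares called over all genes, lists this short would hold few calls, so their counts are not read as results. Of 16 tested genes of mitochondrial NADPH supply and peroxide removal, besides Nnt, 0 were called in any of the 4 comparisons, while 0.455% of genes were called between genotypes in sham, 1.12% in TAC, and 0.971% between TAC and sham in KO. Their median difference between KO and WT was 0.01 in sham, against 0.02 over all genes, and -0.14 in TAC, against 0.02. Between TAC and sham in KO, where Nnt was lower, the smallest p of the list was that of the malic enzyme gene Me3 (-0.35 ± 0.10, limma adjusted p = 0.132), followed by the NAD kinase gene Nadk2 (-0.60 ± 0.23, adjusted p = 0.307). The list's median there was -0.14, against -0.01 over all genes.

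Of 21 tested genes of one-carbon folate metabolism, besides Aldh1l1, 0 were called in any of the 4 comparisons. Over all genes, 0.455% were called between genotypes in sham, 1.12% in TAC, and 0.971% between TAC and sham in KO. Their median between KO and WT was -0.04 in sham and -0.11 in TAC. Ftcd, which handles the formimino group of histidine breakdown, was the nearest to a call in sham (1.51 ± 0.43, limma adjusted p = 0.309), and Slc46a1, the proton-coupled folate transporter, was nearest in TAC (-0.87 ± 0.28, adjusted p = 0.184). Aldh1l2, the mitochondrial counterpart of Aldh1l1, differed by -0.68 ± 0.24 between TAC and sham in KO (limma adjusted p = 0.251).

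Of 18 tested genes of endosomal FYVE proteins and the TLR3 and TLR4 route through TRIF, besides Wdfy1, 0 were called in any of the 4 comparisons. The shares over all genes were 0.455% between genotypes in sham, 1.12% in TAC, and 0.971% between TAC and sham in KO. The list's medians between genotypes were 0.03 in sham and 0.04 in TAC. The receptor gene Tlr4 differed by 0.99 ± 0.28 between TAC and sham in KO (limma adjusted p = 0.145). Wdfy3, which also has FYVE and WD domains, differed between KO and WT in TAC by 0.30 ± 0.14 (limma adjusted p = 0.347).

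Of 7 tested genes of the BEX and TCEAL families, besides Bex1, and of the receptor p75 (Ngfr), 0 were called between genotypes. The shares over all genes were 0.455% in sham and 1.12% in TAC. Their differences between KO and WT ran from 0.0037 to 0.73 in sham, with a median of 0.26, against 0.02 over all genes. In TAC they ran from -0.41 to 1.01, with a median of 0.23, against 0.02. The values 0.0037 in sham and 1.01 ± 0.63 in TAC were those of Ngfr, and Tceal7 was next in TAC (0.44 ± 0.23). Bex2 and Bex6 were too dim to be tested. Bex2 had lower means in KO, by -1.42 ± 0.72 in sham and -1.21 ± 0.72 in TAC. Bex6 differed by 1.06 ± 0.75 in sham and -0.18 ± 0.75 in TAC. Bex3, a neighbour of Bex1 on the X chromosome, lay between 882.9 and 1256 in KO sham, against 471.6 and 927.3 in WT sham (0.73 ± 0.22, limma adjusted p = 0.380). Tceal7 rose with TAC in KO, to signals between 160.0 and 253.3 in KO TAC, against 70.2 and 110.3 in KO sham. That was 2.20-fold (1.14 ± 0.23, limma adjusted p = 0.0380), a call that ended in 11 of 16 fits that left out 1 array (adjusted p between 0.0325 and 0.0981). In WT it differed by 1.19 ± 0.23 (adjusted p = 0.375).

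Markers of other cell types were read beside these values, since in whole ventricle more cells of a type and more RNA per cell cannot be told apart. The summed signal of 8 macrophage markers moved with genotype on the deposited scale. It lay between 23595 and 26600 in KO sham, against 20560 and 22628 in WT sham, and between 26713 and 32995 in KO TAC, against 19249 and 25600 in WT TAC. Of these markers 0 were called in sham, where 0.455% of all genes were, and 1 in TAC, where 1.12% were: the complement gene C1qb (0.64 ± 0.11, limma adjusted p = 0.0150). That call ended without WT TAC replicate 4 (0.0524), with no filter (0.0669), with only the arrays compared (0.192) and with the spike-in covariate (0.0741). The summed signal of 7 fibroblast markers lay between 58522 and 65824 in KO TAC, against 41572 and 54050 in WT TAC, and between 39803 and 46544 in KO sham, against 40604 and 43881 in WT sham. Of these, Col1a2, Lum and Col3a1 were called higher in KO TAC than in WT TAC, where 1.12% of all genes were called, and than in KO sham, where 0.971% were. Against WT TAC, the call of Lum ended in 5 and that of Col3a1 in 6 of 16 fits that left out 1 array (limma adjusted p up to 0.0897 and 0.104). Both calls also ended with the replicate number as a block (0.0654 and 0.0523) and with no filter (0.0924 and 0.0853). The same held with only the arrays compared (0.192 and 0.171) and with the spike-in covariate (0.233 and 0.141). The call of Col1a2 against WT TAC held in all 16 (adjusted p up to 0.0433). It ended with only the arrays compared (0.119) and with the spike-in covariate (0.0786). Against KO sham, the calls of Lum and Col3a1 ended with only the arrays compared (limma adjusted p = 0.0740 and 0.0839). The summed signal of the 10 cardiomyocyte markers lay between 504760 and 636450 in KO TAC, against 653460 and 891860 in WT TAC, with no overlap, and between 594360 and 701280 in KO sham, against 532320 and 636680 in WT sham. None of the 10 was called in any of the 4 comparisons, and their median difference was 0.17 between KO and WT in sham, -0.37 in TAC, -0.22 between TAC and sham in KO, where Nnt fell, and 0.27 in WT. The part of these cells in the members' differences was not tested.

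Aldh1l1 and Bex1 are known for glia and neurons, so nerve and glia markers were examined. The summed signal of the 12 markers with a probe set lay between 2086 and 2686 in KO sham, against 2247 and 2690 in WT sham, and between 2082 and 2417 in KO TAC, against 2449 and 3495 in WT TAC, where it was lower in KO without overlap. Of the 8 bright enough to be tested, 0 were called between genotypes, where 0.455% of all genes were in sham and 1.12% in TAC. The glial gene Gfap lay between 153.4 and 351.1 in KO sham, against 164.0 and 291.2 in WT sham, and between 158.0 and 224.1 in KO TAC, against 182.6 and 432.3 in WT TAC. Among markers of liver, where Aldh1l1 is abundant, Fgb was at or near the floor, at no more than 15.5 on any array, and Alb and Apoa1 were too dim to be tested, with lower means in KO. The tested one, Ttr, lay between 74.6 and 174.1 in KO sham, against 15.8 and 109.4 in WT sham, and between 102.6 and 183.3 in KO TAC, against 57.9 and 167.5 in WT TAC, with overlap (0.88 ± 0.53, limma adjusted p = 0.845, in sham and 0.28 ± 0.53, adjusted p = 0.859, in TAC). Atrial markers varied widely, with sums between 1322 and 26325 in KO sham, against 415.1 and 8129 in WT sham, and between 752.6 and 5231 in KO TAC, against 253.6 and 2074 in WT TAC. These sums overlapped and none of the 3 markers was called. All 3 had higher means in KO after either operation, with median differences of 1.47 in sham and 2.95 in TAC, against 0.02 over all genes. The SE was as large as 1.56, for Sln. The part of atrial tissue in the members' differences was not tested. The Y-linked genes Eif2s3y, Kdm5d and Uty gave signals of at least 154 in every group, with overlap and no call.

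The genes next to each member in the genome were read beside it. In RefSeq's order of genes on GRCm38.p6, the 4 members lie on 4 different chromosomes, none of them that of Ppara. The nearest 10 genes on each side with a tested probe set, fewer for Nnt near a chromosome end, gave 78 neighbours. In sham 0 were called higher and 1 lower in KO, and in TAC 0 were called, where 0.455% and 1.12% of all genes were called. Their median difference, over the 4 members together, was 0.01 in sham and 0.02 in TAC. By member, the medians in sham and TAC were 0.01 and -0.005 for Nnt and 0.03 and 0.04 for Wdfy1. They were -0.07 and -0.04 for Aldh1l1 and 0.13 and 0.10 for Bex1. The neighbours of Bex1 included Bex3, Bex4, Tceal1, Tceal7, Tceal8 and Tceal9, which are also in the BEX and TCEAL list above. The neighbour called was Tmem267, near Nnt, which was lower in KO sham (-1.41 ± 0.27, limma adjusted p = 0.0386) and differed by -0.32 ± 0.27 in TAC. That call ended in 10 of 16 fits that left out 1 array (adjusted p between 0.0128 and 0.134). Kcne4, a potassium channel subunit gene next to Wdfy1, differed by 1.83 ± 0.43 in TAC (limma adjusted p = 0.0709) and by -0.13 ± 0.43 in sham. Around Ppara itself, 0 of 20 neighbours were called in either operation. The nearest to a call there, named after their values were seen, were Gramd4 (-0.61 ± 0.14 in TAC, limma adjusted p = 0.0572, and -0.59 ± 0.14 in sham, 0.129), Cdpf1 (-0.70 ± 0.16 in TAC, 0.0681) and D130051D11Rik (-2.98 ± 0.70 in sham, 0.138, and -1.92 ± 0.70 in TAC, 0.247).

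**Figure D5:**
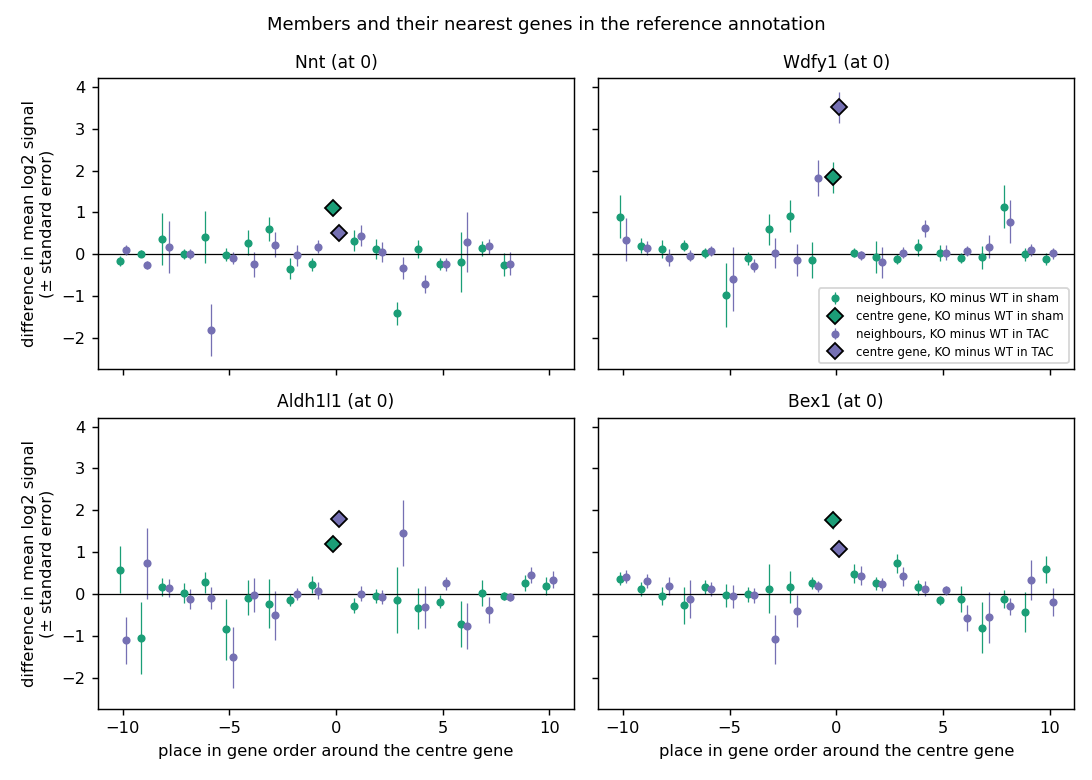
Difference in mean log2 signal between KO and WT (y axis) against place in gene order (x axis) for each member at 0 and its nearest genes with a tested probe set, in sham and in TAC; bars are the SE of the limma fit and diamonds are the members. Over the 4 members together, neighbours scatter around 0, with medians of 0.01 in sham and 0.02 in TAC. Those of Bex1 have medians of 0.13 in sham and 0.10 in TAC, and Kcne4 next to Wdfy1 stands at 1.83 in TAC.

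Genes known to differ in allele or copy number between inbred strains were read as a further list. Of 9 tested, 0 were called in sham, where 0.455% of all genes were, and 1 in TAC, where 1.12% were. Of the 9, 4 had a higher mean in KO in sham and 4 in TAC. The list's median difference was -0.006 in sham and -0.14 in TAC, against 0.02 over all genes in either. The genes named next are those with the smallest p. Ide, the insulin-degrading enzyme gene, lay between 1591 and 1998 in KO TAC, against 2528 and 3905 in WT TAC (-0.86 ± 0.19, limma adjusted p = 0.0448), and between 1845 and 2574 in KO sham, against 2651 and 4747 in WT sham (-0.61 ± 0.19, adjusted p = 0.382). The groups did not overlap after either operation. Of all tested probe sets, 2.31% were lower in KO sham without overlap, and 4.02% in KO TAC. The call in TAC ended in 12 of 16 fits that left out 1 array (adjusted p between 0.0287 and 0.125). Alad, a gene of haem synthesis, lay between 885.7 and 1213 in KO TAC, against 1430 and 1509 in WT TAC (-0.45 ± 0.11, limma adjusted p = 0.0829), and between 1284 and 1472 in KO sham, against 1624 and 1894 in WT sham (-0.36 ± 0.11, adjusted p = 0.400), also without overlap.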

How the data were processed

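Total RNA of 16 left ventricular samples, 4 in each group by sample title, was labelled with biotin and hybridised to arrays of 45101 probe sets, per the labels' protocols. The deposited table holds signal intensity on a linear scale, and GCOS 1.4 is the tool named, per the submitters' processing notes; its settings and any genome build were not given in these sources. The authors' intensity had been scaled: the mean between the 2nd and 98th percentiles was 499.61 to 499.98 on every array. Such scaling makes a shift shared by many bright genes move the others the opposite way.

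Values were raised to at least 11.9, the 10th percentile, and turned to log2 without another normalization step. The dimmest 40% of the 45037 probe sets without the 64 controls were not tested, which left 27022. In GEO's platform annotation 34945 probe sets had 1 gene symbol, 932 several and 9147 none; 34741 were matched by gene ID to RefSeq's GRCm38.p6 table and 204 kept the array's symbol. Group means were estimated and contrasted over the 16 arrays together by limma 3.58.1 (R 4.3.3), two-sided, with Benjamini-Hochberg adjustment; tables were made with Python 3.11.15 and pandas 2.3.3. Where 1 probe set stands for a gene, it is the one with the highest mean log2 signal.

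The members, lists and tests were chosen with earlier results of these data known. The genes named were every member probe set, up to 4 called genes of each list and comparison or else the 2 with the smallest p, the 5 genes most like each member, up to 10 others called higher in both operations, and likewise for neighbours; the text describes part of these. Alternatives were quantile normalization, centring arrays on their medians, no filter, 1 probe set per gene, limma with trend and robust, the compared arrays alone, a block for replicate number, the spike-in signal as a covariate, a floor at the 25th percentile and each array left out. Arrays with the same replicate number did not deviate together (r between -0.11 and 0.08 for 16 same-numbered pairs of arrays in the groups compared), so the numbers were not taken to pair samples. On simulated arrays with 200 of 27022 probe sets changed, 37% of 2-fold and 73% of 4-fold changes were found again for KO versus WT in sham, 51% and 77% for the same contrast in TAC, 44% and 78% for TAC in KO, and 42% and 76% for TAC in WT, with 3, 8, 5 and 2 false calls. Every simulation used a spread pooled over the 4 groups, so these shares differ between contrasts only by the random draws and do not rank them. Precision is limited by having 4 arrays in a group.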

Additional observations from a re-analysis of the deposited data

Results flagged for a closer look

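In the 44 sets of 4 arrays formed by the 11 probe sets and 4 groups, 6 held an array far from the other 3 by Dixon's criterion, where chance gives about 1 in 20. Wdfy1 was low on WT TAC replicate 4 on 2 probe sets, with 14.3 on 1437358_at, against 136.9 to 161.4 on the others of that group, and 7.3 on 1424749_at, against 85.5 to 102.4. The third Wdfy1 probe set so marked, 1453426_a_at, gave 45.5 on KO TAC replicate 1, against 167.8 to 200.1. Bex1 gave 946.4 on WT sham replicate 3, against 645.1 to 678.2. The dim Nnt probe set 1432608_at gave 255 on WT TAC replicate 3, against 19.4 to 29.8, and the dim Aldh1l1 probe set 1424401_at gave 23.4 on KO TAC replicate 2, against 52.4 to 60.7.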

How the results depend on the processing

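The 8 testable member probe sets kept a higher mean in KO than in WT in both operations under every alternative run, except Wdfy1 1453426_a_at in TAC with the spike-in covariate (-0.077). With arrays centred on their medians, Nnt in TAC was 0.69 on 1416105_at and 0.73 on 1456573_x_at, and with the spike-in covariate Wdfy1 1424749_at in sham was 1.76. Centring moved the median of all tested probe sets to -0.04 for KO versus WT in sham, 0.19 in TAC, 0.11 for TAC in KO and -0.12 for TAC in WT. Nnt 1456573_x_at was called for TAC in KO with trend and robust (limma adjusted p = 0.0156).

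Changes between operations that were not called turned sign as follows. Nnt 1416105_at in WT gave 0.049 and 0.027 when WT TAC replicate 1 or 2 was left out and 0.021 and 0.029 when WT sham replicate 3 or 4 was, within a range of -0.050 to 0.049 over all 16 arrays left out in turn. Without WT TAC replicate 4, Wdfy1 in WT gave 0.47 on 1437358_at (range -0.70 to 0.47) and 0.37 on 1424749_at (range -0.66 to 0.37), which also gave 0.048 with the higher floor. Wdfy1 1453426_a_at in KO gave 0.17 without KO TAC replicate 1 (range -0.55 to 0.17), and Bex1 in KO gave -0.069 without KO sham replicate 3 (range -0.069 to 0.18).

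Counts of called probe sets moved more. For KO versus WT in sham (89) they were 44 with centring (5 higher and 39 lower, against 14 and 75), 50 with no filter, 151 with trend and robust, 34 with only the arrays compared and 51 with the spike-in covariate; for KO versus WT in TAC (249) 206 with centring (152 higher and 54 lower, against 112 and 137), 114 with no filter, 586 with trend and robust, 39 with only the arrays compared and 65 with the covariate. For TAC in KO (197) they were 118 with centring (113 higher and 5 lower, against 132 and 65), 84 with no filter, 503 with trend and robust, 36 with only the arrays compared and 94 with the covariate. For TAC in WT (0) they were 3 with quantile normalization, 1 with centring and 1 with trend and robust. With the replicate number as a block, which the check of deviations did not bear out as a pairing, the counts were 38, 152, 120 and 0. Leaving out 1 array gave 45 to 97 for KO versus WT in sham, 120 to 231 in TAC, 91 to 230 for TAC in KO and 0 to 5 for TAC in WT, the last without WT TAC replicate 3. The cause of these shifts was not tested. At 4 arrays per group, 2-fold changes were recovered in under 55% of simulated cases, so a difference of that size that was not called is not shown to be absent.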
